A study of Mus musculus with 2 samples.

Results

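The genes described here are 54 ligands and receptors of axon guidance, taken by symbol from the 32285 genes of the deposited table. They fall into 11 families, which are 9 Eph receptors, 5 A-type and 3 B-type ephrins, 6 secreted class 3 semaphorins, 6 transmembrane semaphorins, 8 plexins, 2 neuropilins, 3 Slits, 3 Robos, a netrin group of 6 genes (Unc5a to Unc5d, Dcc and Ntn1) and 3 Flrts. All 54 were found in both libraries. Their levels were read in cranial neural crest cells (CNCCs) of the mouse head at E11.5, a stage at which the facial prominences are growing towards each other.

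The study compared 2 single-cell RNA-seq libraries, one of control and one of mutant cells. All embryos were Wnt1CRE+ and carried the reporter as r26 mTmG/mTmG. Control embryos were wt/flox for Tfap2a and also wt/flox for Tfap2b, so that they too carried the CRE and a floxed copy of each gene, and mutant embryos were flox/flox for Tfap2a and also flox/flox for Tfap2b. Tfap2a and Tfap2b encode AP-2 transcription factors that act in the neural crest. The tissue was the head in front of the ear region, dissociated to single cells, from which GFP+ cells, those with a CRE-recombined mTmG reporter, were sorted. The Wnt1:CRE driver acts in the neural crest and in the dorsal neural tube, so the sorted cells also held brain lineages. Each library pooled 2 embryos. With 1 library per genotype there was no replicate, no difference was tested, and every interval given below is a 95% interval that covers counting error only.

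Axon guidance genes act in pairs of ligand and receptor. Ephrins bind Eph receptors at cell contacts, semaphorins act through plexins with neuropilins as co-receptors, Slits act through Robos, and netrin acts through Dcc and the Unc5 receptors, with the Flrts as further partners of Unc5. Beyond growing axons, the same pairs steer migrating neural crest cells, keep cell groups apart at boundaries and organise cranial ganglia.

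Of 6148 control and 6063 mutant barcodes, 5625 and 5587 were kept, with a median of 13478 and 12234 UMIs (counted RNA molecules) per cell. Cells were clustered without the 54 genes. They fell into 4 classes named from marker genes, mesenchyme-like (3755 control and 2808 mutant cells), neuron-like (973 and 1522), brain progenitor-like (636 and 1055) and glia-like (261 and 202). Tfap2a stood at 19.3 CPM (counts per 1000000 UMIs of the class) in control and 13.4 in mutant mesenchyme-like cells, and Tfap2b at 56.3 and 47.5. Reads of a 3′ library need not lie in the deleted part of either gene, so neither level checks the deletion. Control cells held Xist in 98.8% of cases and a Y-linked gene in 0.0356%, and mutant cells in 0.107% and 82.0%, so that genotype and sex of the embryos cannot be told apart, which bears most directly on the X-linked members Efnb1 and Plxna3.

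The class with the highest level varied from gene to gene and was mostly the same in both genotypes. For 43 of the 54 genes the same class had the highest CPM in both libraries, while the full order of the 4 classes was the same for 24. Among the 18 genes with 200 UMIs or more in each class, the highest class was shared for 14. Over the 43 genes, whatever their UMIs, the shared class was mesenchyme-like for 14, neuron-like for 15, brain progenitor-like for 10 and glia-like for 4. For 9 genes the highest class was 4-fold or more above the next in both libraries.

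Among ligands and ligand-like genes, Sema3a, a secreted semaphorin that repels axons through Nrp1, stood at 46.6 CPM in control and 42.8 in mutant mesenchyme-like cells. That was 7.86-fold and 5.88-fold above the next class. Sema5a, a transmembrane semaphorin with thrombospondin repeats, stood at 64.6 and 66.6 CPM in the same class, 7.69-fold and 7.85-fold above the next. Both were therefore largely mesenchymal in either genotype. Flrt2, a leucine-rich repeat transmembrane protein that binds Unc5 receptors, stood at 87.7 and 97.7 CPM in mesenchyme-like cells, 4.55-fold and 5.20-fold above the next class. Ntn1, the netrin ligand, was instead highest in brain progenitor-like cells at 46.3 and 38.8 CPM, 7.57-fold and 5.30-fold above the next class. Sema3b was highest in glia-like cells, but on 16 and 41 UMIs, with 4.20-fold and 5.56-fold over the next class. The ephrin Efna3 was highest in neuron-like cells at 12.9 and 13.7 CPM, 4.46-fold and 4.49-fold above the next.

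Receptors made the neuron-like class stand out. Dcc, the attractive netrin receptor, stood at 276 CPM in control and 262 in mutant neuron-like cells, 17.3-fold and 11.0-fold above the next class. Robo3, a Robo family receptor known from commissural neurons, stood at 214 and 199 CPM, 22.7-fold and 108-fold above the next class. The receptor Plxnd1 was highest in glia-like cells at 11.0 and 14 CPM, 4.57-fold and 5.09-fold above mesenchyme-like cells. The remaining receptors were shared more widely among classes. Epha4, for example, was highest in mesenchyme-like cells of both libraries at 148 and 160 CPM, with 79.7 and 70.4 CPM in neuron-like cells. Epha5 was nearly the reverse, with 207 and 227 CPM in neuron-like and 3.78 and 5.05 CPM in mesenchyme-like cells. Nrp2 stood at 118 and 123 CPM in glia-like cells, above its level in each other class in both libraries.

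**Figure D1:**
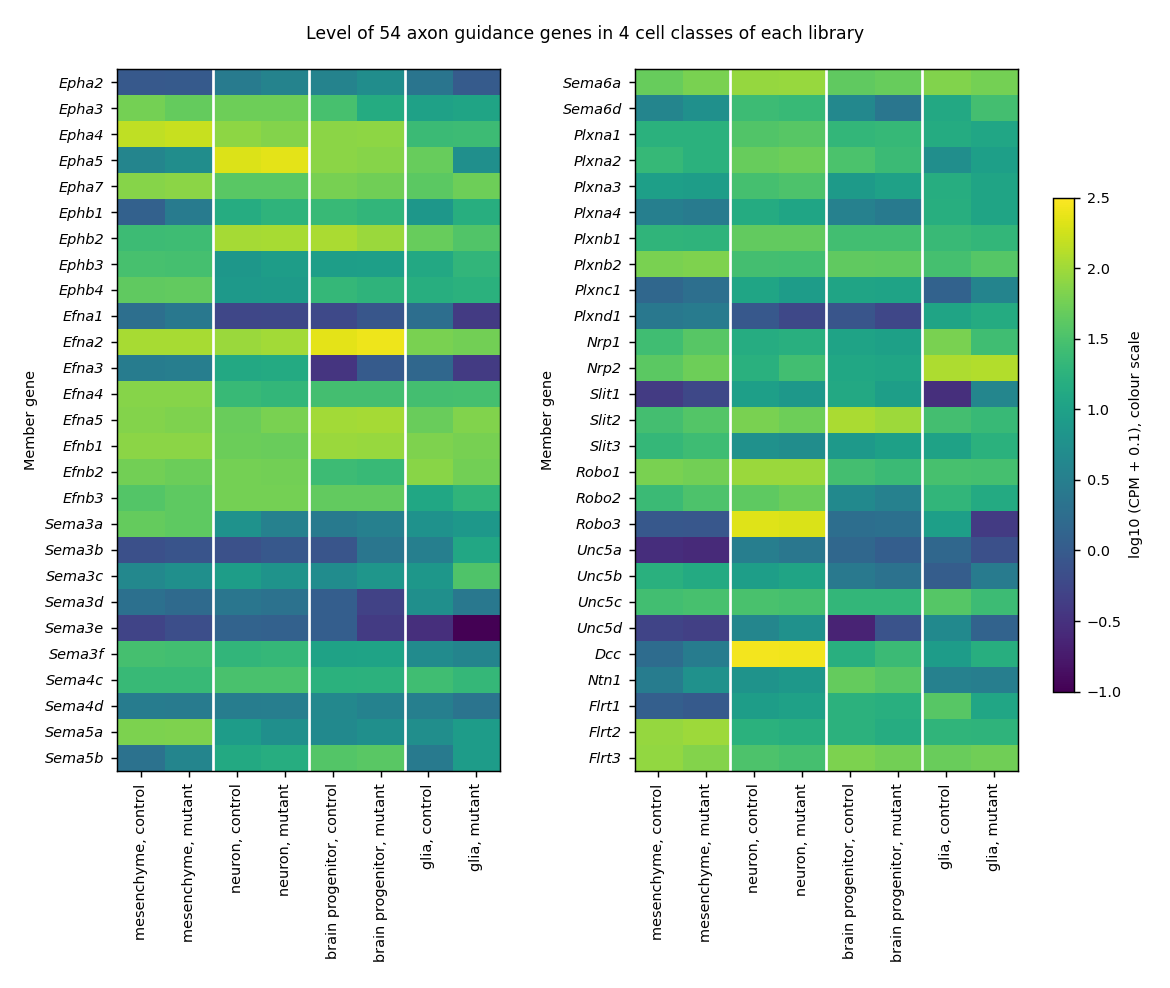
Heat map of the level of each of the 54 genes (rows) in 4 cell classes of the control and the mutant library (columns), as log10 of CPM plus 0.1, with 1 library per column. Dcc and Robo3 are brightest in the neuron-like columns of both libraries and Sema3a, Sema5a and Flrt2 in the mesenchyme-like columns. Epha5 drops from 47.9 to 5.46 CPM between the 2 glia-like columns.

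The first comparison asked which of these genes differed between mutant and control in the facial mesenchyme. Most did not differ by much. A gene was called when its CPM differed 1.5-fold or more and it had at least 200 UMIs in both libraries together. Of the 43 genes with enough UMIs in mesenchyme-like cells, 3 were higher in the mutant (Ntn1, Sema5b and Dcc) and 0 were lower, where 2.1% of all 11459 genes measured this well were higher and 0.707% lower. The median log2 ratio of mutant over control was 0.05 over the 43 genes and 0.02 over all genes. The interval lay above 0 for 17 of the 43 genes and below 0 for 8.

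All 3 called genes were scarce in mesenchyme-like cells. Ntn1 stood at 2.82 CPM in control and 5.75 in mutant cells (log2 ratio 1.03, 0.74 to 1.32). Sema5b, a transmembrane semaphorin, stood at 1.96 and 3.81 CPM (0.96, 0.61 to 1.32). Dcc stood at 1.63 and 2.83 CPM (0.80, 0.40 to 1.20), with 42.1% of its control and 41.9% of its mutant UMIs in 10 cells of each library. These are genes whose main class was neuron-like or brain progenitor-like, and markers of those classes moved with them. The 7 neuron markers summed to 159 CPM in control and 221 CPM in mutant mesenchyme-like cells, and the 7 brain progenitor markers to 13.8 and 34.7 CPM, with all 14 detected in both libraries. Their part in the result was not tested. When each library was given the same shares of mesenchyme clusters, the log2 ratio was 0.74 for Ntn1, 0.53 for Sema5b and 0.19 for Dcc, so that the last 2 were no longer called. Without 2 clusters of mixed character (one mesenchyme-like, one neuron-like), an alternative chosen after seeing the data, the log2 ratios were 0.97, 0.95 and 0.92.

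Measured semaphorins other than Sema5b stayed under 1.5-fold. In the class 3 group the highest ratio was that of Sema3c, 4.17 CPM in control and 5.37 in mutant cells (log2 ratio 0.36, 0.10 to 0.63), and the lowest that of Sema3a (log2 ratio -0.12, -0.21 to -0.04). The 6 transmembrane semaphorins had a median log2 ratio of 0.21. Sema6d reached 0.55 (0.28 to 0.82) from 3.79 and 5.55 CPM, whereas Sema4c and Sema4d, at -0.02 each, lay lowest. Among their receptors, the plexins were close to even, with a median of -0.04 over 7 genes. Plxna2 had the lowest plexin ratio, 22.1 CPM in control and 17.3 in mutant cells (log2 ratio -0.35, -0.48 to -0.22), and Plxnd1 the highest, 0.19 (-0.18 to 0.55). X-linked Plxna3 stood at 9.22 and 8.90 CPM (log2 ratio -0.05).

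The neuropilins, co-receptors of the class 3 semaphorins, both had log2 ratios above 0. Nrp1 stood at 26.6 CPM in control and 38.7 in mutant mesenchyme-like cells (log2 ratio 0.54, 0.44 to 0.64), just under the 1.5-fold limit. Nrp2 stood at 40.9 and 53.9 CPM (0.40, 0.32 to 0.48). Slit ligands and Robo2 moved by similar amounts. Slit2 stood at 28.1 and 36.3 CPM (log2 ratio 0.37, 0.27 to 0.47) and Slit3 at 21.4 and 25.8 CPM (0.27, 0.16 to 0.39). For the receptors, Robo2 went from 23.9 to 33.4 CPM (0.48, 0.37 to 0.59) and Robo1 from 62.0 to 56.7 CPM (-0.13, -0.20 to -0.06). None of these 6 genes passed the call across the whole mesenchyme, although each interval lay on 1 side of 0.

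Ephrins and Eph receptors were close to even as families. The median log2 ratio was 0.05 over 7 Eph receptors, 0.01 over 5 A ephrins and -0.01 over 3 B ephrins. Epha3, a receptor of A ephrins, had the lowest ratio of its family, 58.9 CPM in control and 47.3 in mutant cells (log2 ratio -0.31, -0.39 to -0.24), and Epha5 the highest (0.42, 0.14 to 0.69). In the A ephrins the range ran from Efna5 (71.6 and 66.0 CPM, -0.12) to Efna1 (1.82 and 2.42 CPM, 0.41), and in the B ephrins from Efnb2 (56.8 and 52.4 CPM, -0.12) to Efnb3 (36.6 and 42.2 CPM, 0.21). X-linked Efnb1 was nearly identical in the 2 libraries, at 77.4 and 77.0 CPM.

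In the netrin group, the receptor Unc5b stood at 16.7 and 13.8 CPM (log2 ratio -0.27, -0.42 to -0.12) and Unc5c, which mediates repulsion, at 27.4 and 30.5 CPM (0.16, 0.05 to 0.26). Flrt2 and its relative Flrt3 lay on opposite sides of 0. Flrt2 had a log2 ratio of 0.16 (0.10 to 0.22), while Flrt3 went from 84.3 to 69.8 CPM (-0.27, -0.34 to -0.21). A gene on the opposite strand overlaps the 3′ end of Flrt3, as it does for Flrt1, Ephb1, Ephb4, Plxna1 and Unc5a. The other 11 genes had fewer than 200 UMIs in mesenchyme-like cells, namely Epha2, Ephb1, Sema3b, Sema3d, Sema3e, Plxnc1, Slit1, Robo3, Unc5a, Unc5d and Flrt1. They ranged from 18 UMIs in all for Unc5a to 185 for Ephb1, for which 65 UMIs in control and 120 in mutant cells gave 1.12 and 2.74 CPM.

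**Figure D2:**
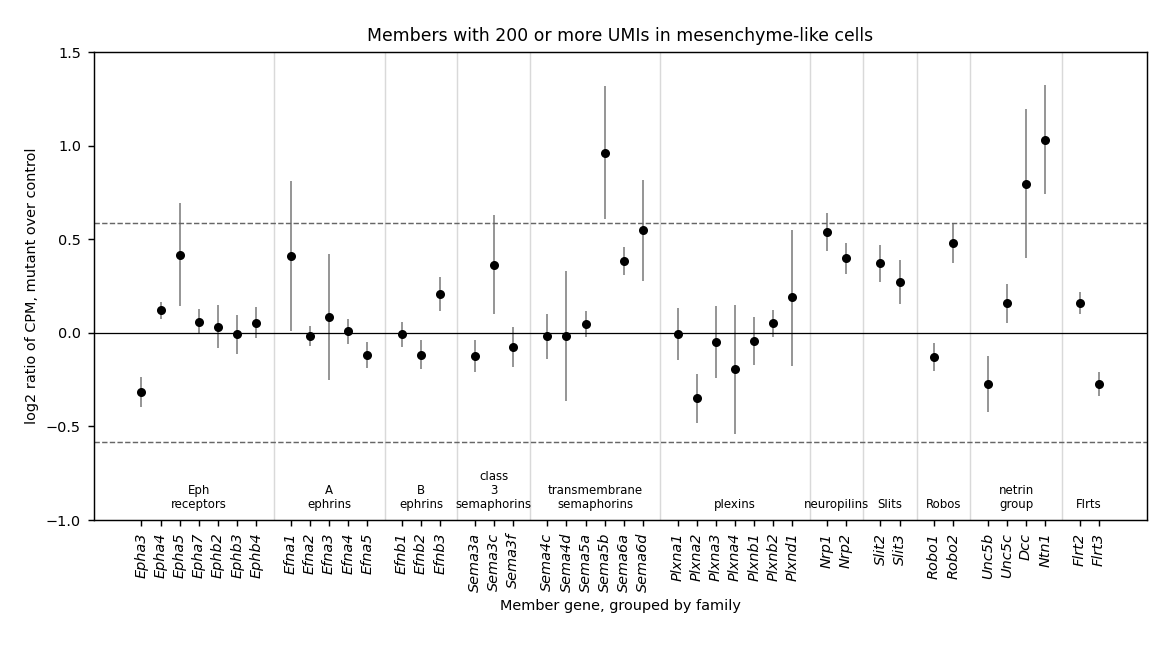
Log2 ratio of CPM, mutant over control (vertical axis), for the 43 genes with 200 or more UMIs in mesenchyme-like cells, grouped by family. Points are ratios of 2 libraries, bars are 95% counting intervals and dashed lines mark 1.5-fold; Sema5b, Dcc and Ntn1 lie above the upper line and no gene lies below the lower one.

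The mesenchyme-like cells split into 7 clusters, of which 3 carried the markers of a facial region: frontonasal-like (658 control and 416 mutant cells), maxillary-like (747 and 546) and mandibular-like (768 and 404). Cluster 0, led by Vtn, Tfap2b, Zic1 and Tagln, held 857 and 652 cells, cluster 4, led by Dlx3, Emx2, Lypd1 and Hoxa2, 555 and 476, and cluster 5, led by Cyp26a1, Shisa3, Ebf2 and Hmx1, 128 and 232. Cluster 6 (42 and 82 cells) was led by brain progenitor genes, and 71.4% and 68.3% of its cells were called doublets. The regions shared most of their guidance genes. Of 30 genes with 200 UMIs or more in each named region, 20 had the same highest region in both libraries, and only Unc5c of the 54 was 2-fold or more above the next region in both, at 64.8 and 54.2 CPM in mandibular-like cells against 32.1 and 26.2 in frontonasal-like cells.

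In the 3 named regions together, 3 of 32 genes with enough UMIs were called in at least 1 region, where 2.55% of 8703 genes were. In frontonasal-like cells 2 of 31 genes, Nrp1 and Robo2, were higher in the mutant (1.05% of all genes) and 0 lower (0.397%). In maxillary-like cells 0 of 31 were higher (0.503%) and 0 lower (0.339%). In mandibular-like cells 0 of 31 were higher (0.522%) and 1, Epha3, was lower (0.796%). The median log2 ratio was 0.11 in frontonasal-like, 0.02 in maxillary-like and -0.14 in mandibular-like cells, against 0.01, 0.01 and -0.02 over all genes.

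Nrp1 was low in control frontonasal-like cells and higher in the mutant, at 13.2 and 26.9 CPM (log2 ratio 1.03, 0.69 to 1.37). In the other named regions it stood at 27.9 and 38.1 CPM (maxillary-like, log2 ratio 0.45) and 39.0 and 52.5 CPM (mandibular-like, 0.43), so all 3 regions had more in the mutant but 1 passed the call. Robo2 stood at 15.3 and 23.9 CPM in frontonasal-like cells (log2 ratio 0.64, 0.31 to 0.98), 19.0 and 23.1 in maxillary-like (0.28) and 30.3 and 28.4 in mandibular-like cells (-0.09). The frontonasal call of Robo2 was close to the limit. With each cell thinned to 5000 UMIs its log2 ratio there was 0.36, with every cell given equal weight 0.54, and with clusters made without integrating the libraries 0.54. Nrp1 kept its call under each of these, at 0.66, 0.94 and 1.15.

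Epha3 was the one gene called lower in a named region. It stood at 117 CPM in control and 68.7 in mutant mandibular-like cells, 1.70-fold lower in the mutant (log2 ratio -0.77, -0.93 to -0.61), while the frontonasal-like levels were 44.2 and 32.9 CPM (-0.43) and the maxillary-like levels 51.3 and 47.6 CPM (-0.11). The mandibular-like cells thus had the highest Epha3 level of the 3 regions in either library. Several other ratios lay below 0 without reaching 1.5-fold. Sema3a stood at 55 and 38.6 CPM in mandibular-like (-0.51) and 29.2 and 23.8 CPM in maxillary-like cells (-0.29). Flrt3 stood at 101 and 73.1 CPM in mandibular-like (-0.47) and 81.5 and 66.5 CPM in maxillary-like cells (-0.29). For Efnb2 the frontonasal-like levels were 63.5 and 44.0 CPM (-0.53).

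Cluster 0 held more calls than any other mesenchyme cluster. Its mix of cells differed between the libraries, as given further below, so its ratios need not be differences within a single kind of cell. Of 31 genes with enough UMIs, 10 were higher in the mutant, where 3.39% of all genes were, and 1 was lower, where 1.17% were; the median log2 ratio was 0.10 over the 31 genes. The 10 came from both sides of the ligand and receptor pairs. Unc5c had the highest ratio, 17.1 CPM in control and 47.3 in mutant cells, 2.76-fold higher (log2 ratio 1.46, 1.22 to 1.71). Its partner Flrt2 stood at 146 and 246 CPM (0.76, 0.67 to 0.85). Nrp2 went from 56.9 to 111 CPM (0.96, 0.82 to 1.10) and Nrp1 from 17.1 to 27 CPM (0.66, 0.38 to 0.93). Of the Slit pathway, Slit3 went from 17.4 to 33.2 CPM (0.93, 0.67 to 1.20) and Robo2 from 26.4 to 43.0 CPM (0.71, 0.49 to 0.93). The transmembrane semaphorins Sema5a (0.59), Sema6a (0.66) and Sema6d (0.80) were also higher. Epha3 stood at 35.7 and 57.7 CPM (0.69, 0.50 to 0.88), opposite in direction to the mandibular-like cells. Plxna2, a receptor of the Sema6 proteins, was the lower one, at 19.1 and 12.5 CPM (-0.62, -0.96 to -0.28).

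Other genes moved with these in cluster 0. The neuron gene Stmn2 stood at 6.34 CPM in control and 45.1 in mutant cells, and the 7 neuron markers together at 127 and 188 CPM, all 7 detected in both libraries. Alx1 (299 and 157 CPM) and Tfap2a (55.6 and 30.3 CPM) were called lower, and 7 blood markers summed to 181 and 0.686 CPM. Without the 1 control and 3 mutant cells of the cluster that held at least 5 of the 7 neuron markers, 11 members were called. Unc5c was then 1.46 and Flrt2 0.76. With so few cells left out, these values could hardly change. The part of the neuron markers in the result was not tested. With TMM scaling Sema5a was 0.55 and no longer called, and with equal weight per cell Slit3 was 0.51 and Plxna2 -0.52. These alternatives for the clusters were chosen after seeing the data.

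Flrt2 was called in both directions. Its level was higher in mutant cells of clusters 0, 6 and 5, in the last of which it went from 56.4 to 109 CPM (log2 ratio 0.96, 0.58 to 1.35). In cluster 4 it was lower, at 54.3 and 35.9 CPM (-0.60, -0.82 to -0.38). In the named regions it stood at 92.1 and 66.9 CPM (frontonasal-like, -0.46), 68.5 and 59.0 CPM (maxillary-like, -0.22) and 75.8 and 57.9 CPM (mandibular-like, -0.39). The near-even ratio over the whole mesenchyme thus covered opposite differences among its clusters. The frontonasal-like value depended on where that cluster ended. With finer clusters it was 0.45 and with clusters made without integration 0.20, and Unc5c went from -0.29 to 0.28 and 0.41. At the finer setting cluster 0 gave mainly a frontonasal-named cluster (524 control and 336 mutant cells), with Flrt2 at 117 and 217 CPM (0.89) and Unc5c at 12.5 and 26.9 CPM (1.11), and a periocular or meningeal-named one (381 and 368 cells), with Flrt2 at 195 and 261 CPM (0.42) and Unc5c at 26.6 and 69.9 CPM (1.40). Both genes were thus above control in either piece of cluster 0, while Flrt2 in the periocular or meningeal-named piece was under 1.5-fold. From cluster 0 itself, the frontonasal-named piece took 477 control and 287 mutant cells. The periocular or meningeal-named piece took 378 and 362, so the mix of pieces differed between the libraries. The other genes called in cluster 0 are not given by piece here. The part of the mix in their ratios was not tested.

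Clusters 4, 5 and 6 gave fewer calls. In cluster 4, 1 of 29 genes was higher (1.18% of all genes) and 2 lower (0.681%). Slit2 went from 26.4 to 46.7 CPM (log2 ratio 0.82, 0.58 to 1.07), and Flrt3 from 89.9 to 47.6 CPM (-0.92, -1.10 to -0.73), alongside the lower Flrt2. Slit2 was near even in each named region, at 43.6 and 47.9 CPM in maxillary-like cells (0.14), where it was highest of the 3. In cluster 5, 2 of 13 genes were higher (1.65%) and 0 lower (1.02%), Flrt2 as given above and Robo2 at 49.0 and 89.1 CPM (0.86, 0.46 to 1.29). That cluster rested on 128 control cells. In cluster 6, the one with most cells called doublets, 1 of 8 genes was higher (1.31%) and 0 lower (0.813%), again Flrt2, at 60.2 and 96.2 CPM (0.68, 0.27 to 1.09).

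**Figure D3:**
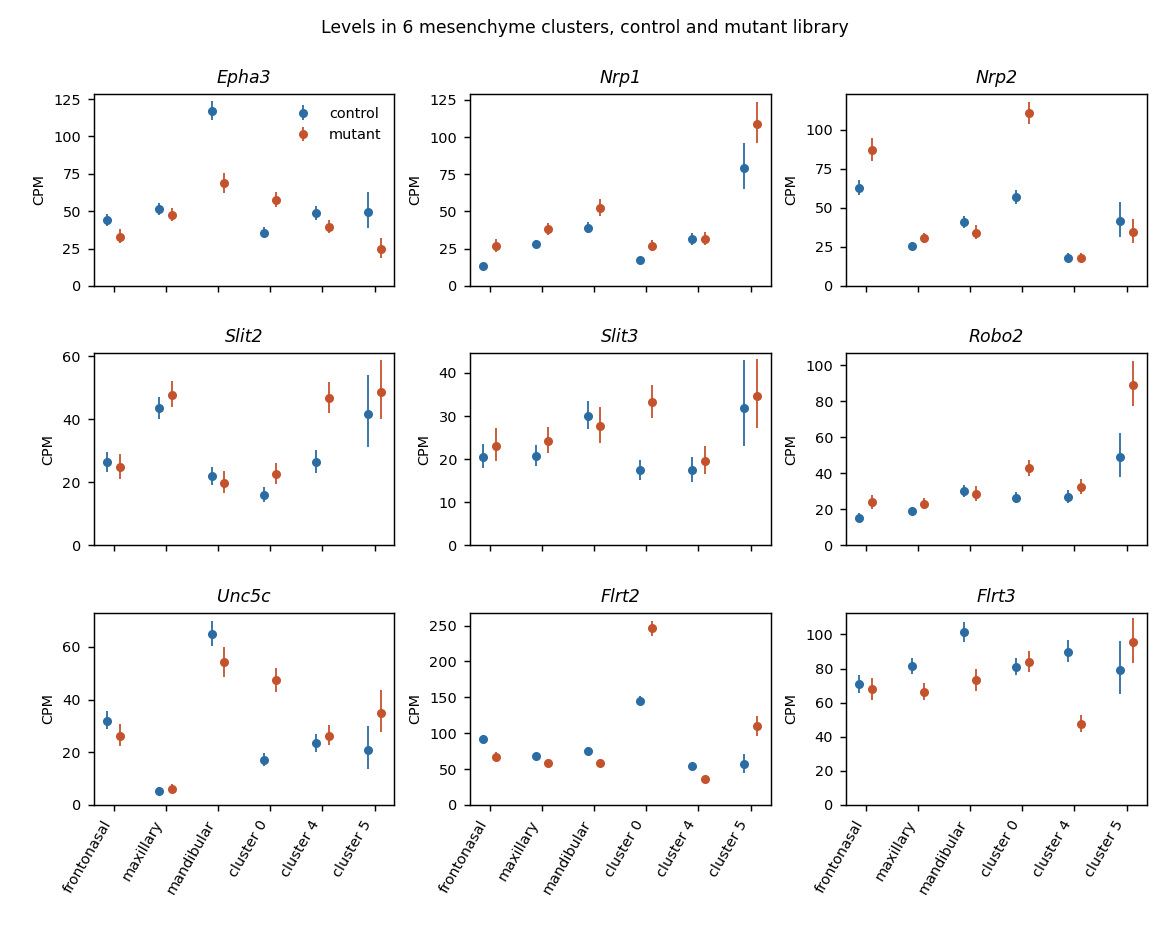
Level (CPM, linear axis from 0) of 9 guidance genes in 6 mesenchyme clusters of the control and mutant libraries, with 95% counting intervals as bars. In cluster 0 the mutant point is above the control point for Epha3, both neuropilins, Slit3, Robo2, Unc5c and Flrt2, whereas Epha3 is lower in mandibular-like cells (117 and 68.7 CPM) and Flrt3 in cluster 4 (89.9 and 47.6 CPM).

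Promoter sequence is shown for 4 genes called in a mesenchyme cluster or region, since AP-2 proteins are known to bind GCCNNNGGC. The motif reads the same on both strands and was searched in 300 bases around the start (250 before and 50 after), from RefSeq on GRCm38.p6. Such a window was found for 43 of the 54 genes, and 11 of them (25.6%) held the motif in at least 1 window, against 18.5% of 27025 genes. Matches are in capitals, with 1 in Flrt2 (chr12:95691976-95692275, plus strand), 1 in Slit2 (chr5:47982905-47983204, plus strand) and 0 in Nrp1 (chr8:128358823-128359122, plus strand) and Epha3 (chr16:63864126-63864425, minus strand).
Flrt2: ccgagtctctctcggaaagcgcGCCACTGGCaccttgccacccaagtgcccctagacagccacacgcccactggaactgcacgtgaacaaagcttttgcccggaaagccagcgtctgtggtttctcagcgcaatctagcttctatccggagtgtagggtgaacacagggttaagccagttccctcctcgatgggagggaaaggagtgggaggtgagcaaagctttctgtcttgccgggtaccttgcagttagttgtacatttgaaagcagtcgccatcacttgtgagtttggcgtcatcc
Slit2: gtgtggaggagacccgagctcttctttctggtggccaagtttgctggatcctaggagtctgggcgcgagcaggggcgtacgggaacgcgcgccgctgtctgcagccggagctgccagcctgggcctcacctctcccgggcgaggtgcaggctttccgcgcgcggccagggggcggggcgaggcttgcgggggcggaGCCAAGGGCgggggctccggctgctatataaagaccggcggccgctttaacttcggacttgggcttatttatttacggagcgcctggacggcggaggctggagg
Nrp1: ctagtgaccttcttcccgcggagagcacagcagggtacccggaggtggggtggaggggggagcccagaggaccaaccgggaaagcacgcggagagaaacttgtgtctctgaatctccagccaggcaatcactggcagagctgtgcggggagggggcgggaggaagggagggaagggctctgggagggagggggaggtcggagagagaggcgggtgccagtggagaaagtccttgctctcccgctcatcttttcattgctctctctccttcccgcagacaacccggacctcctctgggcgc
Epha3: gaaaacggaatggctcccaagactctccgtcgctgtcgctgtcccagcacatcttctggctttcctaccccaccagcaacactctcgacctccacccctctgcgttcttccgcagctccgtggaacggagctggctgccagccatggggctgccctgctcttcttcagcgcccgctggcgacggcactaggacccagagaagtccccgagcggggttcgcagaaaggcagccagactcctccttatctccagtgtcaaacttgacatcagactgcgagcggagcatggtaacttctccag
Among these 4, genes called higher in a mutant cluster were found with and without a match. The 4 were picked because they were called, so they cannot relate a match to the direction of a call. A match is a run of letters and says nothing of binding in these cells.

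In neuron-like cells, 1 of 41 genes was higher in the mutant (0.969% of all genes) and 0 lower (0.712%), with a median log2 ratio of 0.02. The gene was Nrp2, at 16.6 CPM in control and 27.1 in mutant cells (log2 ratio 0.71, 0.46 to 0.96). It came with 36.8% of control and 24.9% of mutant UMIs in 10 cells of each library, and with cells thinned to 5000 UMIs its log2 ratio was 0.42. The genes that mark this class were close to even: Dcc at -0.08, Robo3 at -0.10, Epha5 at 0.13 and Ephb2 at 0.06. In the largest neuron cluster Nrp2 stood at 20.2 and 36.1 CPM (log2 ratio 0.84). That cluster, led by Isl1, Dbx1, Tlx3 and Tfap2d among others, held 438 control and 726 mutant cells. It met no neuron-type name, so its ratio need not be a difference within a single kind of neuron. Markers of other cell types also differed in the class, with 6 mesenchyme markers at 98.3 and 68.0 CPM and 7 blood markers at 678 and 0.407 CPM, and their part in the result was not tested. Without the mixed clusters the log2 ratio of Nrp2 was 0.65.

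In brain progenitor-like cells, 0 of 33 genes were higher (0.679% of all genes) and 1 lower (0.472%). Epha3 stood at 30.3 CPM in control and 14.3 in mutant cells, 2.11-fold lower (log2 ratio -1.08, -1.36 to -0.80), with 30.9% and 28.0% of its UMIs in 10 cells of each library. Dcc stood just under the limit, at 16.0 and 23.9 CPM (0.58, 0.28 to 0.89). Among the ligands, Ntn1 was at -0.25 with its interval below 0, and Efna2 at 0.17 with its interval above 0. Both were under 1.5-fold. Of the 2 measured Slits, Slit2 was at -0.25 and the other at -0.50, both with intervals below 0.

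Glia-like cells gave the called member with the largest ratio of the 4 classes. Of 19 genes with enough UMIs, 0 were higher in the mutant (4.45% of all genes) and 4 were lower (3.97%), 3 receptors and Flrt1, a relative of Flrt2. Epha5 went from 47.9 to 5.46 CPM (244 and 18 UMIs), 8.78-fold lower (log2 ratio -3.13, -3.91 to -2.44). Flrt1 had 196 UMIs in control and 38 in mutant cells, 3.34-fold lower by CPM (-1.74, -2.28 to -1.23). Nrp1 went from 62.8 to 26.4 CPM (-1.25, -1.61 to -0.91), while Nrp2, the other neuropilin, stood at 118 and 123 CPM (0.07). Unc5c went from 37.9 to 24.9 CPM (-0.61, -1.0 to -0.23).

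Neuron markers moved in the same direction in the glia-like class. The 7 neuron markers summed to 2594 CPM in control and 431 CPM in mutant glia-like cells, and all 7 were detected in both, while the 6 glia markers summed to 620 and 985 CPM. At least 5 of the 7 neuron markers were found in 76 of 261 control and 9 of 202 mutant cells of the class. Without those cells, an alternative chosen after seeing the data, Nrp1 was still lower, at 67.3 and 24.5 CPM (log2 ratio -1.46, -1.85 to -1.08). Epha5 then stood at 9.78 and 4.58 CPM on 48 UMIs (-1.10, -2.11 to -0.16). Flrt1 stood at 21.6 and 9.48 CPM on 104 UMIs (-1.19, -1.86 to -0.55). Both were under the minimum. Unc5c stood at 34.8 and 25.5 CPM (-0.45), and Robo3, with 48 control UMIs and 1 mutant UMI in the whole class, had 1 UMI in each library. Nrp1 was therefore called with and without the neuron-marker cells. Epha5 and Flrt1 lost their calls through the UMI minimum, with ratios still more than 1.5-fold lower. Unc5c, on 199 UMIs, was under 1.5-fold. In the whole class, 4 melanoblast markers summed to 69.7 CPM in control and 41.9 CPM in mutant cells, with 3 detected in each library. The part of these markers and of the neuron-marker cells in the ratios was not tested. In the opposite direction, the secreted ligand Sema3c stood at 7.07 and 34.6 CPM (36 and 114 UMIs, log2 ratio 2.29, 1.74 to 2.87), and at 8.05 and 36.6 CPM without those cells, below the UMI minimum either way.

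**Figure D4:**
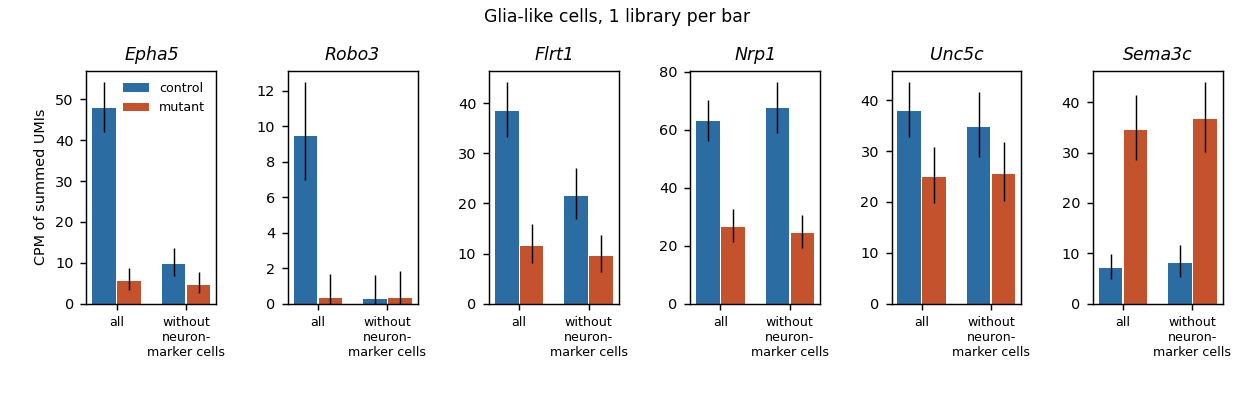
Level (CPM of summed UMIs, axis from 0) of 6 genes in glia-like cells of the control and mutant libraries, for all cells and without cells holding at least 5 of 7 neuron markers; bars are 1 library each, with 95% counting intervals. The control bar of Epha5 falls from 47.9 to 9.78 CPM when those cells are left out, while Nrp1 stays lower in the mutant and Sema3c higher.

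The rest of the pathway was read from 2 further lists, 26 other ligands and receptors and 48 intracellular mediators. In mesenchyme-like cells 2 of 11 measured ligands and receptors were higher and 0 lower, against 2.1% and 0.707% of all genes. These were Ntng1, a membrane-anchored netrin relative, at 12.9 and 21.6 CPM (log2 ratio 0.75, 0.61 to 0.89), and Rgmb, a repulsive guidance molecule, at 20.1 and 30.8 CPM (0.61, 0.50 to 0.73). Of 45 measured mediators 2 (4.44%) were higher and 0 lower, Crmp1 (17.1 and 31.8 CPM, 0.90) and Dpysl5 (1.91 and 3.11 CPM, 0.70), which both belong to the collapsin response mediators of semaphorin signalling. Crmp1 was also higher in frontonasal-like (0.92) and mandibular-like cells (0.85). The 7 neuron markers summed to 159 CPM in control and 221 CPM in mutant mesenchyme-like cells. Their sums were 127 and 165 CPM in frontonasal-like and 179 and 193 CPM in mandibular-like cells. The part of these markers in the results was not tested. The cytoskeletal and GTPase-linked mediators of the list were otherwise under 1.5-fold in mesenchyme-like cells, with a median log2 ratio of 0.01. In maxillary-like cells, where 0.503% of all genes were higher and 0.339% lower, 1 of 6 ligands and receptors was higher, Ntng1 (10.6 and 20.3 CPM, 0.94), and 1 of 35 mediators lower, Dpysl4 (16.7 and 8.20 CPM, -1.03).

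The brain lineages gave fewer calls from these lists. In neuron-like cells 0 of 14 measured ligands and receptors were called and 1 of 44 mediators (2.27%, against 0.712% of all genes) was lower, the Rac activator Dock1, at 9.86 and 6.52 CPM (log2 ratio -0.60). In brain progenitor-like cells 0 of 5 ligands and receptors were called and 1 of 44 mediators (2.27%, against 0.679%) was higher, the actin-binding Ablim1, at 8.73 and 13.7 CPM (0.65).

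In glia-like cells 1 of 3 measured ligands and receptors was higher, the repulsive guidance molecule Rgma, at 23.8 and 48.5 CPM (log2 ratio 1.03, 0.68 to 1.38). There 31 mediators were measured, of which 2 (6.45%, against 4.45% of all genes) were higher, Srgap1 and Mical1, and 5 (16.1%, against 3.97%) lower. The lower ones were Crmp1, at 95.6 and 28.2 CPM (log2 ratio -1.76), Dpysl4, at 110 and 34.9 CPM (-1.66), Enah (-0.85), Srgap3 (-0.60) and Rnd3 (-0.59). Crmp1 was therefore above control in mutant mesenchyme-like cells and below it in mutant glia-like cells. The neuron-marker values given for the glia-like class stand beside these too, and their part in the result was not tested.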

How the data were processed

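Cells were counted from deposited matrices of raw UMI counts per gene and cell, made by the authors with bcl2fastq and Cell Ranger (file header 6.0.0) on mm10, with Seurat 4.3.0 also named in the submitters' processing notes. UMI counts were summed per library and cell group and divided by that group's total (CPM). Cells with 10% mitochondrial UMIs or less and 200 to 7500 genes were kept. They were clustered with Seurat 5.3.0 in R 4.3.3 after integration of the libraries (2000 variable genes, 30 dimensions for classes and 20 within a class). The 54 genes, the pathway lists, Tfap2a, Tfap2b and the outcome genes of the study were kept out of the clustering. So were Xist, Tsix, Y-linked and haemoglobin genes, while X-linked genes outside these sets stayed in. Clusters were named from marker lists. A class resolution of 0.1 replaced the planned 0.05, and the naming rule was settled after the clusters were seen. Doublets were scored with Scrublet (scanpy 1.11.5), which called 93 control and 171 mutant cells. They were kept, and their removal was an alternative. The libraries shared 6 barcodes. Levels have exact Poisson and ratios exact conditional binomial 95% intervals (scipy 1.17.1). The ratio code was run on simulated counts drawn with Poisson counting error alone. Such a run checks the code and cannot show that the intervals cover spread between cells or embryos. TMM scaling used edgeR 4.0.16. The reference annotation showed an opposite-strand gene over the last 1000 bases of Ephb1, Ephb4, Plxna1, Unc5a, Flrt1 and Flrt3, and whether counting used strand is not given in the sources used here. Genes named are those 1.5-fold or more apart in a class or named region with 200 UMIs or more, the highest and lowest ratio of each family in mesenchyme-like cells, those 4-fold (class) or 2-fold (region) above the next, Flrt2, and by name those under 200 UMIs. Those named in clusters 0, 4 and 5, in regions below the limit, and the scarce genes of glia-like cells were added after their values were seen. Members and lists were chosen with earlier results of these data known.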

Additional observations from a re-analysis of the deposited data

Results flagged for a closer look

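Epha3 was called in opposite directions in 2 mesenchyme groups, with a log2 ratio of mutant over control of 0.69 in cluster 0 and -0.77 in mandibular-like cells. Flrt2 was called higher in cluster 5 (0.96) and lower in cluster 4 (-0.60). With 1 library per genotype neither difference between groups was tested.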

How the results depend on the processing

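Over 139 ratios of named genes and up to 10 alternatives each, 1238 values were recomputed. Of these, 1162 stayed within the counting interval of the reported ratio, 76 moved and 0 called values changed sign. Ratios that were not called could change sign. Those of Flrt2 and Unc5c in frontonasal-like cells did so with finer clusters and without integration, as given above. No paired analysis was possible because each genotype had 1 library. The count of genes called depended on the settings. In mesenchyme-like cells the 3 higher genes became 1 at 5% mitochondrial UMIs or less, 5 after thinning, 1 with cluster shares held fixed, 5 with no UMI minimum, 0 with a minimum of 500 and 1 at 2-fold. In neuron-like cells the 1 gene apart became 2 with equal weight per cell, 3 after thinning, 4 with no minimum and 0 at 2-fold. In brain progenitor-like cells 1 became 2 with TMM scaling, the stricter mitochondrial limit, thinning or guidance genes in the clustering, 9 with no minimum and 0 with a minimum of 500. In glia-like cells 4 became 1 at the stricter mitochondrial limit, 1 without cells holding neuron markers (chosen after seeing the data), 25 with no minimum and 0 with a minimum of 500. In the named regions 3 became 6 at the stricter mitochondrial limit, 6 with equal weight per cell, 5 after thinning, 5 without integration, 23 with no minimum, 1 with a minimum of 500 and 1 at 2-fold. In clusters 0, 4 and 5, with alternatives chosen after seeing the data, 11, 3 and 2 genes apart became 22, 15 and 18 with no minimum and 1, 0 and 0 at 2-fold, and cluster 5 had 0 at the stricter mitochondrial limit or with a minimum of 500. The cause was not tested, except that a higher minimum leaves fewer genes. Cell number limits the glia-like class, where 261 control and 202 mutant cells left 19 of 54 genes past the minimum.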
